A study of Mus musculus with 8 samples.

Results

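In the mouse, the tandem repeats that encode the 45S ribosomal RNA precursor lie next to the centromere of a few acrocentric chromosomes, in most laboratory strains some or all of chromosomes 12, 15, 16, 18 and 19. These nucleolus organizer regions (NORs) are transcribed by RNA polymerase I, and the nucleolus forms around them, so that the chromosome ends that carry them can meet in a shared nucleolus. The repeats themselves are largely missing from the assembled genome, and in a Hi-C experiment, which ligates and sequences pairs of DNA fragments that lay close together in the nucleus, the nearest mappable neighbour of an NOR is the first assembled sequence of its chromosome. The regions described here are the 50 kb bins that start between 3 and 20 Mb on these 5 chromosomes. This is the centromere-proximal end in GRCm38, whose chromosomes are assembled from 3 Mb or slightly further in. The rule used chromosome and position only, and it took 1698 of the 48088 autosomal bins, of which 1687 passed the filters on undetermined bases and coverage. Contacts between different chromosomes of the 5 form 10 of the 171 autosome pairs. They were compared with the 91 pairs among the same 3 to 20 Mb of the other 14 autosomes, and with the 70 pairs of 1 of the 5 with 1 of the 14.

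The libraries were in situ Hi-C from splenic naive B cells of male mice aged 6 to 12 weeks, with C57BL/6 as the labelled strain and C57BL/6 Pep3b as the background named in the study's methods. The cells were enriched by negative selection, loaded with the division dye CellTrace Violet (CTV) and activated in culture with 25 µg/ml LPS, a bacterial lipopolysaccharide that drives B cells into division. C57BL/6 cells were taken at 3 h, at 10 h, and at 33 h as imminent division cells, which were sorted as CD69+ cells with the highest CTV signal and had not yet divided. Pre-S cells at 33 h came from C57BL/6 mice with the FUCCI cell cycle reporter and were sorted as mAG- mKO2hi, so mouse line, gate and group cannot be told apart for them. Each of the 4 groups had 2 biological replicates, all groups were exposed to LPS, and no unstimulated group is analysed here.

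The matrices held 88703088 to 218945191 read pairs per library, of which 24.9% to 29.1% of the autosomal ones joined different chromosomes. This share was highest in both imminent division libraries. Pairs that joined mitochondrial DNA to an autosome, whose ends lie in separate compartments of the intact cell, numbered 98.3 to 149 per 1000000 interchromosomal pairs at 3 h and 10 h and 221 to 304 at 33 h. As a share of all pairs with a mitochondrial end, they made up 89.0% to 92.1% at 3 h and 10 h. This share was 90.5% and 90.7% in imminent division cells, and 93.5% and 93.9% in pre-S cells. Imminent division replicate 2 had 3.74% of its read ends on the X chromosome against 2.39% to 2.84% in the other 7 libraries. The part of the interchromosomal and mitochondrial shares in the results was not tested. Without imminent division replicate 2, 1 of the 4 tests on summed contact that were repeated passed to the other side of its threshold, that for group differences of the NOR pairs, and 7 of the 10 NOR pairs in place of 9 changed between 10 h and imminent division.

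The first 240 determined bases at the centromeric end of 4 of the 5 chromosomes are printed, with the start of an 18S-related ribosomal gene. These stretches are a small part of the sequence read, since contacts were counted over whole 50 kb bins. They are the plus strand of GRCm38 (RefSeq), in lower case, with the GATC sites cut by MboI in capitals, and each starts its line with its chromosome or gene name.
chromosome 12, chr12:3000001-3000240: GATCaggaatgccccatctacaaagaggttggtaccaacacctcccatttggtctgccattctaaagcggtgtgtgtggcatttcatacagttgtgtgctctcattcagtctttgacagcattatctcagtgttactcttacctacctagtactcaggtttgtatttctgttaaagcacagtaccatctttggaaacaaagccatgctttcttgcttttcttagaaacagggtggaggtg
chromosome 15, chr15:3050001-3050240: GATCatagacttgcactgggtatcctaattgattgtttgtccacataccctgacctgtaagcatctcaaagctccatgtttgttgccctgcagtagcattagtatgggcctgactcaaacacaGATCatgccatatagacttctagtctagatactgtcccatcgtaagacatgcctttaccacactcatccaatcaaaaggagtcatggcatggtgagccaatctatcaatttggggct
chromosome 16, chr16:3000001-3000240: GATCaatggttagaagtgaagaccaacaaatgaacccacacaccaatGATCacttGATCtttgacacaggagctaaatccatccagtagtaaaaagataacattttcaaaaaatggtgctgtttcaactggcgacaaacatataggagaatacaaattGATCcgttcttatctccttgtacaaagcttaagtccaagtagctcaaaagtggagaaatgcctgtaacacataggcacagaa
chromosome 19, chr19:3000001-3000240: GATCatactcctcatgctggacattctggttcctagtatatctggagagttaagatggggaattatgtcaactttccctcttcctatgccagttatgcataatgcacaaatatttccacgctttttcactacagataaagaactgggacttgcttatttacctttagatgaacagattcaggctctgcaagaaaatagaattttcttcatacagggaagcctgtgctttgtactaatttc
Rn18s-rs5, chr17:39846354-39846653: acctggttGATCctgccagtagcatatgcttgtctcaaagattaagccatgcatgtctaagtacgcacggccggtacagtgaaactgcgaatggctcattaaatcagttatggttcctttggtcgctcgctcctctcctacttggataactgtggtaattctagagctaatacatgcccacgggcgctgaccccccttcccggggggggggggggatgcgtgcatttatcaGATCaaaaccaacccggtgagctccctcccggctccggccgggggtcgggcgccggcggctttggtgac

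Every printed stretch holds at least 1 MboI site, from 1 in the stretches of chromosomes 12 and 19 to 4 in that of chromosome 16, and contains no undetermined base. The stretch of chromosome 15 starts at 3050001, where the determined bases of that chromosome begin. Rn18s-rs5 is annotated as related to the 18S ribosomal RNA gene and spans 1849 bases of chromosome 17, which is not counted among the NOR chromosomes. The 50 kb bin that holds it, chr17:39800075-39850047, had an interchromosomal coverage 23.9 times the autosomal median. Reads from ribosomal repeats that are not assembled can align to such a copy, and the bin was therefore used below as a mark of ribosomal DNA.

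Contact was measured as read pairs observed over those expected if each bin kept its own interchromosomal coverage and had no preference for any partner, so that 1 means no preference. Proximal regions of the 5 chromosomes met each other 1.25-fold above this expectation, and proximal regions of the other autosomes met each other 1.36-fold above it. The NOR pairs therefore did not exceed the pairs among the other chromosome ends. At 3 h the observed over expected of the NOR pairs was 1.25 in replicate 1 (52809 read pairs) and 1.26 in replicate 2 (97451 read pairs). It was 1.28 and 1.26 at 10 h, 1.24 and 1.25 in imminent division cells, and 1.25 and 1.25 in pre-S cells. The other pairs stood at 1.36 and 1.36 at 3 h, 1.37 and 1.36 at 10 h, 1.42 and 1.42 in imminent division cells, and 1.31 and 1.31 in pre-S cells. The NOR values of all libraries lay below all of the other values, with no overlap.

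The ratio of NOR to other proximal contact averaged 0.919, or -0.12 ± 0.04 on the log2 scale (SD, n = 8 libraries), and it was below 1 in 8 of 8 libraries (two-sided exact sign-flip permutation p = 0.00781, the smallest p that 8 libraries allow). All 8 libraries share the same chromosomes. This and the later sign-flip tests therefore measure repeatability over libraries, and not whether NOR chromosomes differ from others as a class. The size and sign of the ratio depended on the extent of the region and on the chromosomes included. With regions of 3 to 10 Mb the difference was -0.24, and with regions of 3 to 30 Mb it turned to 0.07 in favour of the NOR pairs. It was -0.0346 without chromosome 16 (exact sign-flip permutation p = 0.195), -0.0352 without chromosome 19 (exact sign-flip permutation p = 0.0312) and -0.23 without chromosome 15. Against the 5 other autosomes nearest in length (9, 11, 13, 14 and 17, called of similar length here) it was -0.09. Their lengths were 94987271 to 124902244 bases, and those of the NOR chromosomes 61431566 to 120129022. Length was therefore matched only in part.

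**Figure D1:**
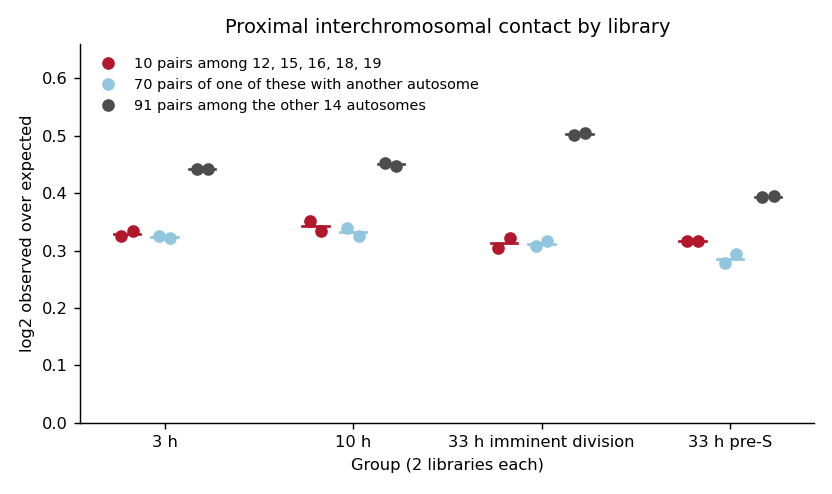
Contact between proximal regions of different chromosomes in each of the 8 libraries, as log2 observed over expected (vertical axis) by group (horizontal axis, 2 libraries each). Each point is 1 library and the sets are pairs among chromosomes 12, 15, 16, 18 and 19, pairs of these with another autosome, and pairs among the other 14 autosomes; the NOR pairs stay between 0.31 and 0.35 while the other pairs range from 0.39 to 0.50.

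Summed over all pairs of a set, contact of the NOR chromosomes with each other did not pass the test for a difference between the groups. Contact among the other chromosome ends did, and so did that of the 70 mixed pairs. Mean log2 contact of the NOR pairs was 0.33 ± 0.01 at 3 h, 0.34 ± 0.01 at 10 h and 0.31 ± 0.01 in imminent division cells (SD, n = 2 each), and 0.32 in both pre-S libraries. The exact permutation test over the 4 groups gave p = 0.0952 for the NOR pairs, also after adjustment over the 4 quantities tested. This test was near its threshold, and it passed without imminent division replicate 2 (p = 0.0476), with regions of 3 to 30 Mb (p = 0.0476), without chromosome 16 (p = 0.0190), without chromosome 19 (p = 0.0381) and relative to the rest of the same chromosome pairs (p = 0.0190), all by exact permutation. The pairs among other autosomes averaged 0.44 at 3 h, 0.45 at 10 h, 0.50 in imminent division cells and 0.39 in pre-S cells, and differed between groups (exact permutation p = 0.00952, the smallest possible, adjusted p = 0.0190). The mixed pairs averaged 0.32 at 3 h, 0.33 at 10 h, 0.31 in imminent division cells and 0.29 in pre-S cells. They also differed between groups (exact permutation p = 0.00952, adjusted p = 0.0190).

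The difference between NOR and other pairs was -0.11 at 3 h and at 10 h, -0.19 in imminent division cells and -0.08 in pre-S cells. It therefore varied with the group (exact permutation p = 0.0190, adjusted p = 0.0254), with both imminent division libraries, at -0.20 and -0.18, lying lowest. The call was lost against autosomes of similar length (p = 0.143), with regions of 3 to 30 Mb (p = 0.0571) and with the replicate number as a block (p = 0.0833, with 0.0417 the smallest possible), all by exact permutation.

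The 10 chromosome pairs were far from alike. Chromosomes 12, 15 and 18 met each other strongly, whereas pairs of chromosome 16 or 19 with those 3 were lower, from 0.954-fold to 1.33-fold. Pair 15-18 had a log2 contact of 0.76 ± 0.05 (SD, n = 8 libraries, 1.69-fold) and was 6th of all 171 autosome pairs. Its values were 0.67 and 0.74 at 3 h, 0.72 and 0.76 at 10 h, 0.79 and 0.86 in imminent division cells, and 0.75 and 0.77 in pre-S cells. Pair 12-15 (1.57-fold) ranked 15 and pair 12-18 (1.56-fold) ranked 19. The 3 pairs among chromosomes 12, 15 and 18 together had a log2 contact of 0.69 ± 0.04, from 0.64 to 0.76 over the libraries.

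The 6 pairs that joined chromosome 16 or 19 to chromosome 12, 15 or 18 had 0.15 ± 0.06 together, from 0.06 to 0.21. This grouping of the 5 chromosomes was made after the contacts were seen and is a description. Among them pair 15-19 stood highest (1.33-fold, rank 87), and pairs 16-18 (1.13-fold), 12-16 (1.08-fold), 15-16 (1.06-fold) and 18-19 (1.06-fold) took ranks 140, 144, 147 and 148. Pair 12-19 was the only NOR pair with a mean below expectation (0.954-fold, rank 161). Chromosomes 16 and 19 met each other 1.26-fold above expectation (log2 0.33 ± 0.09, rank 112). Of the 10 NOR pairs, 9 lay above expectation and 3 above the median of the 171 pairs. These counts were 90 and 49 for the 91 other pairs, and 53 and 33 for the 70 mixed pairs.

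**Figure D2:**
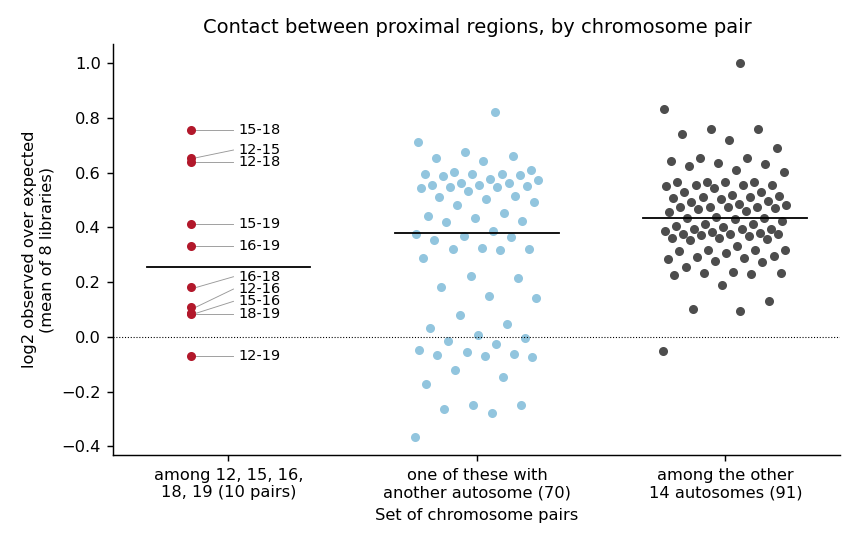
Log2 observed over expected contact between the proximal regions of each of 171 autosome pairs (vertical axis, mean of 8 libraries), in 3 sets of pairs (horizontal axis). Each point is 1 chromosome pair; the 10 NOR pairs spread from -0.07 to 0.76, within the range of the other sets, with pairs among chromosomes 12, 15 and 18 at the top.

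Among the 5 chromosomes, the split went along with what these regions contain, a property that the rule did not use. On chromosomes 16 and 19, 59.3% and 58.2% of proximal bins belonged to the A compartment, the gene-rich and active of the 2 large-scale classes of chromatin seen in Hi-C, against 37.5%, 34.6% and 40.7% on chromosomes 12, 15 and 18. Proximal chromosome 19 held 382 protein-coding gene starts and proximal chromosome 16 held 189, while chromosomes 12, 15 and 18 held 66, 64 and 55. Over all 5 regions there were 756 gene starts, 8.90 per Mb with 46.1% of bins in A, compared with 6.38 per Mb and 33.2% in the other 14 proximal regions. With the other 14 proximal regions as partners, chromosome 16 was at 0.979-fold and chromosome 19 at 1.05-fold, while chromosomes 12, 15 and 18 were at 1.41-, 1.45- and 1.43-fold. With the other 4 NOR regions as partners, chromosomes 16 and 19 were higher, at 1.14- and 1.16-fold. Chromosomes 12, 15 and 18 were lower, at 1.26-, 1.40- and 1.33-fold. Outside the 5, content and contact went together less closely. Chromosome 7 held 342 gene starts and met the other 13 regions at 1.35-fold. Its gene starts were counted over all 340 bins, of which only 278 were kept for contacts, and 38.5% of the kept bins were in A. Chromosome 10 had 55.5% of bins in A and stood at 1.25-fold. Chromosome 2, with 48.4%, was the lowest of the 14 at 1.23-fold. Taking all proximal partners together, chromosome 15 was first and chromosomes 19 and 16 were the last of the 19 autosomes. An expectation that also fitted the A and B classes left the 3 pairs among chromosomes 12, 15 and 18 at 0.65, from 0.69. It left the 6 pairs across at 0.17, from 0.15, and the NOR to other difference at -0.04 (exact sign-flip permutation p = 0.0312). The cause of the split was not tested.

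Contacts between B bins were higher in the NOR regions than in other proximal regions, while contacts of A bins with A or B bins were lower. B bins, the gene-poor class, met B bins of another NOR chromosome 2.22-fold above expectation (log2 1.15 ± 0.07, SD, n = 8, 230374 read pairs), compared with 1.91-fold in the other pairs. A bins met A bins 1.53-fold above expectation, against 1.70-fold in the other pairs. Contacts of A with B bins were at 0.702-fold among the NOR chromosomes and 0.852-fold among the others. The differences in log2 were 0.21 ± 0.05 for B-B, -0.15 ± 0.07 for A-A and -0.28 ± 0.03 for A-B, each with the same sign in 8 of 8 libraries (exact sign-flip permutation p = 0.00781, also adjusted over the 3 classes). B-B contact of the NOR pairs was 1.22 and 1.21 at 3 h and 10 h and 1.10 and 1.07 in imminent division and pre-S cells on the log2 scale, as group means. That of the other pairs was 1.00, 0.97, 0.96 and 0.81 in the same order, and group differences of these classes were not tested.

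Beyond 20 Mb the order of the sets turned. Between 20 and 37 Mb the NOR chromosomes met each other with a log2 contact of 0.25 ± 0.03 (SD, n = 8), while the other autosomes had 0.06 ± 0.02 and the other autosomes of similar length -0.05 ± 0.02. The NOR chromosomes were higher by 0.19 ± 0.02 and 0.30 ± 0.03 in 8 of 8 libraries (exact sign-flip permutation p = 0.00781 for both, also adjusted over 4 comparisons). Contacts of the 3 to 20 Mb part of a NOR chromosome with the 20 to 37 Mb part of another were at 0.27, against 0.05 for the other autosomes (difference 0.22 ± 0.03) and -0.01 for those of similar length (difference 0.28 ± 0.03), with the same exact sign-flip permutation p. Pair 16-19 was highest in the 20 to 37 Mb part (0.76 ± 0.12, 1.70-fold), and pair 15-16 lowest (-0.34 ± 0.05, 0.789-fold), so the order of the pairs differed from that in the 3 to 20 Mb part.

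Along the chromosomes, the first assembled Mb was highest for both sets, at 0.59 for the NOR and 0.63 for the other chromosomes. The NOR windows then fell to 0.26 at 4 to 5 Mb, where the other chromosomes had 0.48, and the curves crossed further in. At 4 to 5 Mb chromosomes 19 (-0.65), 16 (0.19) and 12 (0.34) lay below 0.48. Chromosomes 15 (0.62) and 18 (0.61) lay above it. At the level of 1 Mb windows, 75 of the 85 NOR windows (88.2%) lay above expectation in their contact with the proximal regions of the other 4 NOR chromosomes, with a median log2 of 0.34. In contact with the same NOR regions, 236 of the 237 proximal windows of the other autosomes (99.6%, median 0.28) and 1223 of all 2410 autosomal windows (50.7%, median 0.00) lay above expectation. For chromosomes 12, 15 and 18 all 17 windows were above expectation, for chromosome 16 there were 13 and for chromosome 19 there were 11.

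**Figure D3:**
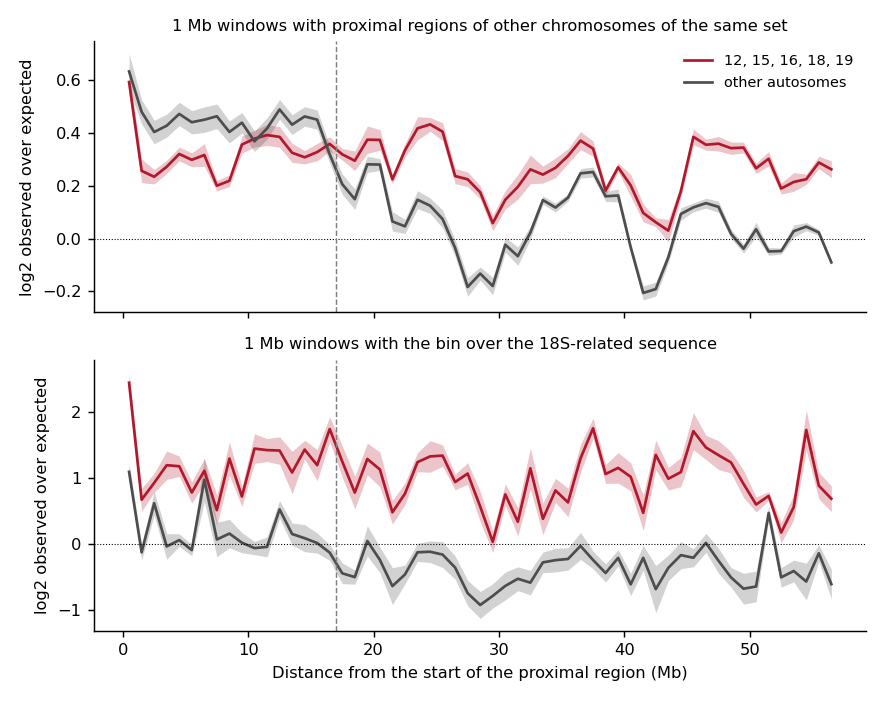
Log2 observed over expected contact in 1 Mb windows (vertical axes) against distance from the 3 Mb start of the proximal region (horizontal axis in Mb), for the 5 NOR chromosomes and the other 14 autosomes. The upper panel shows contact with proximal regions of the same set, where the first windows stand at 0.59 and 0.63. There the other autosomes lie below the NOR chromosomes in every window from 19 to 47 Mb, in chromosome coordinates. The lower panel shows contact with the ribosomal bin, where the NOR line begins at 2.44 and stays above that of the other autosomes. The dashed line marks 20 Mb in chromosome coordinates.

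On 4 of the 5 chromosomes the window with the highest contact was the one next to the centromere, from 3 to 4 Mb. That of chromosome 16 had a log2 contact of 0.92 (1.89-fold), the highest of all 2410 windows, and holds the olfactory receptor genes Olfr161 and Olfr15, the pyrin gene Mefv and the zinc finger gene Zfp263. That of chromosome 15 was at 0.69 and contains Selenop, which encodes the selenium carrier of plasma, Ccdc152, the growth hormone receptor gene Ghr and the F-box gene Fbxo4. That of chromosome 18 was at 0.68 and holds the vomeronasal receptor gene Vmn1r238, the transcription factor gene Crem, the cullin gene Cul2 and Bambi, a decoy receptor of TGF-β signalling. That of chromosome 12 was at 0.58, with the trafficking GTPase gene Rab10, the kinesin gene Kif3c, the chromatin regulator Asxl2 and Dtnb. Chromosome 19 was the exception, since its highest window was the last, from 19 to 20 Mb (0.84, second of all windows), with the nuclear receptor gene Rorb.

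The lowest window of all 2410 was also a NOR window. On chromosome 19 the window from 5 to 6 Mb, entirely in the A compartment and with Slc29a2 (a nucleoside transporter), B4gat1, AC124502.3 and Brms1 first among its genes, had a log2 contact of -0.89 (0.540-fold). The lowest window of chromosome 16 was at 18 to 19 Mb (-0.19), with Dgcr6, the proline dehydrogenase gene Prodh, the Nogo receptor gene Rtn4r and Ccdc188. The lowest windows of the other 3 chromosomes were still above expectation. These were 16 to 17 Mb on chromosome 12 (0.21, with the lipid phosphatase gene Lpin1, the neurotensin receptor gene Ntsr2, Greb1 and E2f6), 18 to 19 Mb on chromosome 15 (0.29, with the cadherin gene Cdh10) and 10 to 11 Mb on chromosome 18 (0.30, with the deubiquitinase gene Usp14, the kinase gene Rock1, Greb1l and the cohesin acetyltransferase gene Esco1). The 30 NOR windows with under 20% of their bins in A had a median of 0.35, the 35 windows with 20% to 80% had 0.34 and the 20 windows with over 80% had 0.13. The last median joined unlike chromosomes, since the 8 such windows of chromosomes 12, 15 and 18 had 0.44, the highest of their classes, and the 12 of chromosomes 16 and 19 had -0.11.

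The label of the 5 chromosomes was checked with the bin over Rn18s-rs5, which held 19070 to 50242 interchromosomal read pairs per library. Its contact with the proximal regions of the NOR chromosomes was 2.47 and 2.63 times the expectation at 3 h, 2.52 and 2.49 times at 10 h, 2.28 and 1.98 times in imminent division cells, and 2.59 and 2.48 times in pre-S cells. With the other proximal regions it was 1.14 and 1.12, 1.17 and 1.14, 1.34 and 1.27, and 1.20 and 1.24 times in the same order. The summed NOR value was the higher in every library, and the log2 difference was 1.01 ± 0.20 (SD, n = 8, higher in 8 of 8, exact sign-flip permutation p = 0.00781).

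The difference between the sets was smallest in the imminent division libraries, at 0.76 and 0.64, compared with 1.01 to 1.24 in the other 6 libraries (exact permutation p = 0.0476 over the 4 groups). By chromosome, contact of the proximal region with the bin was 3.16-fold for chromosome 15, 2.64-fold for chromosome 16, 2.32-fold for chromosome 12, 2.12-fold for chromosome 18, 1.93-fold for chromosome 13, 1.91-fold for chromosome 19 and 1.71-fold for chromosome 6. Chromosome 13, which the rule did not take, had a log2 contact of 0.95 ± 0.25 beside 0.93 ± 0.18 for chromosome 19 (SD, n = 8), and exceeded it in all 4 libraries at 33 h. The values of chromosomes 13 and 6 rested on 1 window each, 9 to 10 Mb on chromosome 13 with 1762 of its 3852 read pairs (45.7%) and 3 to 4 Mb on chromosome 6 with 1589 of 3234 (49.1%). With the highest window of every proximal region left out, an alternative chosen after seeing the data, chromosome 13 was at 1.14-fold and chromosome 6 at 0.940-fold. The 5 NOR chromosomes then took the first 5 of 18 places, from 2.93-fold for chromosome 15 to 1.70-fold for chromosome 19, and the log2 difference between the sets was 1.10. Chromosome 15 had the bin at log2 1.92 and 2.01 at 3 h, 1.94 and 1.76 at 10 h, 1.62 and 1.27 in imminent division cells, and 1.39 and 1.39 in pre-S cells. On chromosome 12 the values were 1.09 and 1.02, 1.36 and 1.17, 1.01 and 0.94, and 1.62 and 1.54 in that order. No chromosome passed the test over the 4 groups after adjustment over the 18 chromosomes (lowest adjusted p = 0.110, exact permutation), and 6 of the 18 had an unadjusted p under 0.05.

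**Figure D4:**
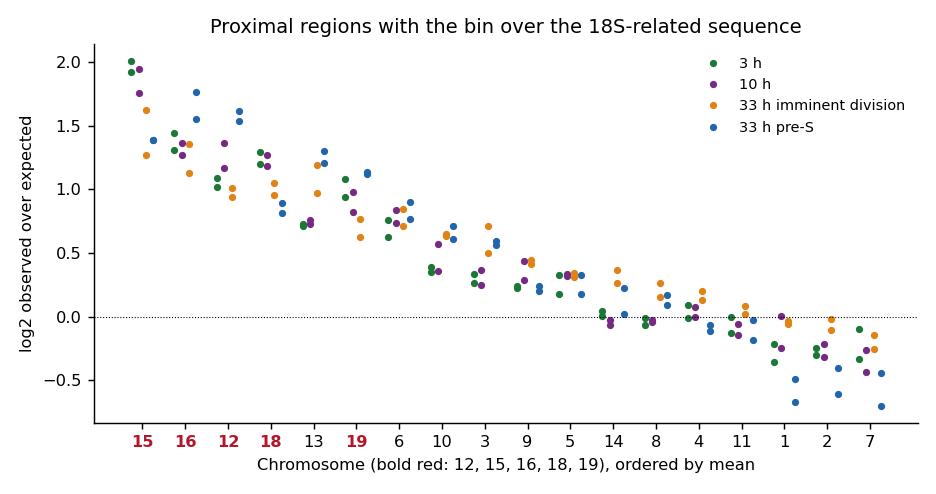
Log2 observed over expected contact of each proximal region with the bin over Rn18s-rs5 (vertical axis), with chromosomes ordered by mean (horizontal axis) and 1 point per library for the 18 autosomes other than 17, coloured by group. Chromosomes 15, 16, 12 and 18 lead, chromosome 13 and chromosome 19 follow at 0.95 and 0.93, and chromosomes 1, 2 and 7 lie lowest.

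Taken over whole chromosomes, the 5 NOR chromosomes held the first 5 of 18 places in contact with the ribosomal bin. Chromosome 19 was at 2.16-fold, chromosome 16 at 2.12-fold, chromosome 15 at 1.69-fold, chromosome 18 at 1.53-fold and chromosome 12 at 1.50-fold, and chromosome 13 followed at 1.08-fold. The contact thus reached past the proximal region. Windows more than 2-fold above expectation made up 50 of 85 (58.8%) in the NOR proximal regions and 128 of 374 (34.2%) in the rest of these chromosomes. They made up 10 of 214 (4.67%) in the other proximal regions and 22 of 1626 (1.35%) elsewhere. A few windows stood far out on both kinds of chromosome, the highest being 146 to 147 Mb on chromosome 5 (23.5-fold), 61 to 62 Mb on chromosome 19 (15.7-fold) and 3 to 4 Mb on chromosome 16 (14.2-fold). Whether these windows hold sequence related to the bin was not tested. Medians over windows, which such places hardly touch, gave a log2 difference of 1.15 between NOR and other proximal regions.

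Changes of single chromosome pairs were tested with edgeR's quasi-likelihood test over all 10765 pairs of 17 Mb blocks on different autosomes, with the coverage expectation as offset and Benjamini-Hochberg adjustment. From 3 h to 10 h, 0 of the 10 NOR pairs changed, and percent called over all block pairs was 0, also with DESeq2. An unadjusted p under 0.05 was found for 0 NOR pairs and 928 of all block pairs, and the NOR fold changes lay between -0.05 and 0.03 on the log2 scale. Between 10 h and imminent division, 9 of the 10 NOR pairs passed an adjusted p of 0.05, where 42.5% of all block pairs did. Of these 4 rose and 5 fell, in opposite directions that the summed NOR contact does not show, where 20.9% of all block pairs rose and 21.6% fell.

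The pairs that fell all joined chromosome 16 or 19 to chromosome 12, 15 or 18. Pair 12-19 had log2 contacts of 0.06 and 0.01 at 3 h, 0.03 and 0.01 at 10 h, -0.31 and -0.24 in imminent division cells, and -0.07 and -0.03 in pre-S cells. Both imminent division values lay below the other 6, and the fitted log2 fold change against 10 h was -0.29 ± 0.03 (SE, edgeR adjusted p = 6.6e-13). Pair 18-19 fell by 0.24 (adjusted p = 3.7e-10), pair 15-19 by 0.19, pair 12-16 by 0.10 and pair 16-18 by 0.06.

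Pair 16-19 rose the most. Its log2 contacts were 0.30 and 0.29 at 3 h, 0.32 and 0.26 at 10 h, 0.48 and 0.47 in imminent division cells, and 0.27 and 0.26 in pre-S cells. The imminent division libraries lay above the other 6, with a fitted log2 fold change of 0.19 ± 0.03 against 10 h (SE, edgeR adjusted p = 2.5e-06). Pair 12-18 rose by 0.10, pair 15-16 by 0.09 and pair 15-18 by 0.08, while pair 12-15 did not pass the test (0.00 ± 0.03). Among the 91 other proximal pairs 45 rose and 5 fell, and among the 70 mixed pairs 17 rose and 20 fell.

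**Figure D5:**
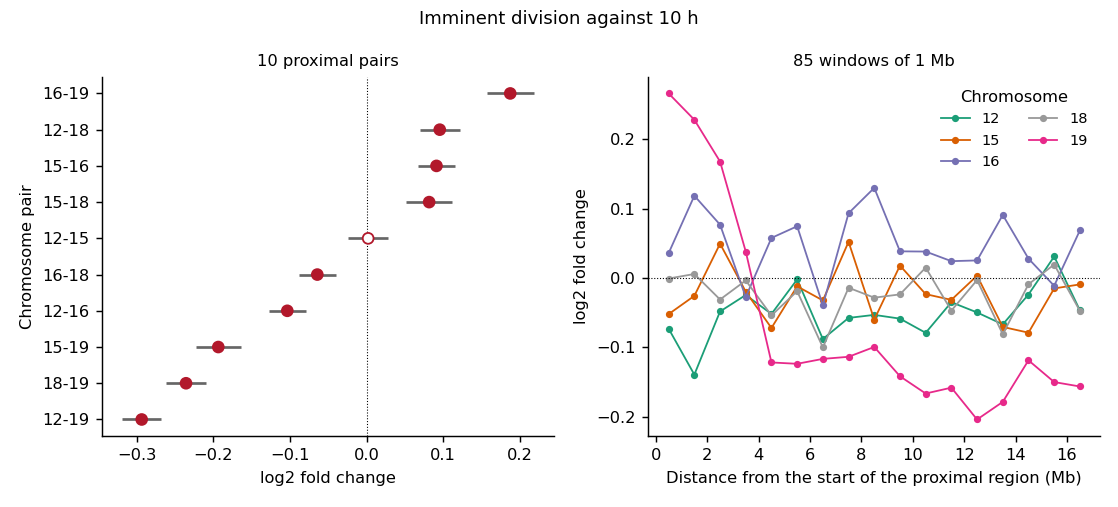
Changes between 10 h and imminent division, as log2 fold change from the edgeR fit. Left, the 10 NOR pairs (vertical axis) with bars of 1 SE and filled points for an adjusted p below 0.05, from -0.29 for pair 12-19 to 0.19 for pair 16-19. Right, the 85 windows of 1 Mb by distance from the start of the proximal region. The first 3 windows of chromosome 19 are the highest, and its window from 15 to 16 Mb is the lowest.

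Fewer NOR pairs passed the test between 10 h and pre-S cells. Pairs 12-19 (log2 fold change -0.07) and 15-19 (-0.11) fell, 2 of 10 where 27.5% of all block pairs changed and 14.2% fell, and 43 of the 91 other proximal pairs fell with 0 rising. The count was 6 with TMM factors in place of the coverage expectation, 1 with DESeq2, 0 without 10 h replicate 1, and 1 without 10 h replicate 2 or either pre-S library. Imminent division and pre-S cells were both taken at 33 h and differed directly in 7 of the 10 pairs (4 with TMM factors), where 31.4% of all block pairs changed, 15.8% upwards and 15.5% downwards. Of the 91 other proximal pairs 67 changed (73.6%), all of them higher in imminent division cells, and of the 70 mixed pairs 43 changed (61.4%), so the share of NOR pairs was no higher than that of the other proximal pairs. Pairs 16-19 (0.21), 12-18 (0.15) and 15-16 (0.11) were higher in imminent division cells, and pairs 12-19 and 18-19 (both -0.22), 12-16 (-0.14) and 15-19 (-0.08) were lower. The comparisons share the libraries of their common group, and the values are given side by side for that reason.

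At the finer scale of 1 Mb windows, 2410 windows were tested for their contact with the NOR proximal regions of other chromosomes. Of the 85 NOR windows, 23 changed between 10 h and imminent division (27.1%, where 21.3% of all windows did), 7 upwards and 16 downwards, against 13.8% and 7.55% of all windows. Chromosome 19 supplied 16 of the 23, with its first 3 windows rising and 13 others falling. The window from 3 to 4 Mb rose by 0.27 ± 0.03 (SE, log2, edgeR adjusted p = 2.1e-15), that from 4 to 5 Mb by 0.23 and that from 5 to 6 Mb, the lowest of all windows in level, by 0.17. The strongest fall was at 15 to 16 Mb (-0.20 ± 0.03), over Psat1, an enzyme of serine synthesis, and Cep78. Chromosome 16 had 4 windows that rose and none that fell, chromosome 12 had 2 that fell, chromosome 18 had 1 that fell and chromosome 15 had none. The windows at 3, 4 and 15 Mb of chromosome 19 were chosen after their values were seen.

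From 3 h to 10 h only the window at 4 to 5 Mb of chromosome 16, whose first genes are Slx4, Dnase1, Trap1 and the acetyltransferase gene Crebbp, changed (log2 0.19 ± 0.03, adjusted p = 5.1e-05, 1.18% of the 85 windows where 0.249% of all windows changed). It did not pass without 3 h replicate 2 or with DESeq2, and the window was chosen after its value was seen. Between 10 h and pre-S cells 14 windows changed (background 14.1%), 2 of them higher (background 7.59%) and 12 lower (background 6.51%). Chromosome 19 held 11 of the 14, with 2 higher and 9 lower. Between pre-S and imminent division cells 10 windows changed (background 6.97%), 7 of them higher in imminent division cells (background 3.82%) and 3 lower (background 3.15%). Of the 7 that were higher, 5 were on chromosome 16. Leaving out either 10 h or either pre-S library left 4 or 5 calls for pre-S against 10 h, and the count for imminent division against pre-S was 3 without imminent division replicate 1 and 4 without either pre-S library. DESeq2 called 9 of 85 for imminent division against 10 h, 1 for pre-S against 10 h and 0 for imminent division against pre-S, while TMM factors in place of the coverage expectation gave 44, 52 and 38, and 0 for 10 h against 3 h, so the order of the first pair of counts was not stable.

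The genes whose products transcribe ribosomal DNA or build the nucleolus lie elsewhere. Of 24 listed genes, Rrn3, which recruits RNA polymerase I to its promoter, was the only one in the NOR proximal regions (chr16:13780708-13814839, plus strand). Its window, 13 to 14 Mb, was at 1.08-fold, and its contact was higher in imminent division than in pre-S cells (log2 0.13, edgeR adjusted p = 0.016). The windows of 13 of the 24 genes (54.2%) lay above expectation, with a median log2 of 0.08, beside 50.7% and 0.00 for all windows. The highest was that of Pes1, a factor of large ribosomal subunit assembly, in the first Mb of chromosome 11 (1.70-fold, 5th of all windows), followed by that of its partner Bop1 on chromosome 15 (1.33-fold). The lowest was that of Nolc1, a nucleolar chaperone gene on chromosome 19 (0.659-fold). Between 10 h and imminent division 3 of the 24 windows rose, those of Nop56 (0.12), Polr1b (0.11) and Nolc1 (0.10), and 2 fell, those of Npm1 (-0.14) and Pes1 (-0.09). In the same test 13.8% of all windows rose and 7.55% fell. Between pre-S and imminent division cells 3 of the 24 windows were higher in imminent division, those of Rrn3, Ubtf and Ttf1, and that of Polr1d was lower, where 3.82% and 3.15% of all windows were. Between 10 h and pre-S cells the windows of Polr1e and Ubtf fell (-0.13 each) and 0 of 24 rose, where 6.51% of all windows fell and 7.59% rose. From 3 h to 10 h that of Pes1 rose (0.09), where 0.124% of all windows did, and 0 of 24 fell. With TMM factors or with DESeq2, 0 of all 2410 windows passed in that comparison, so the Pes1 call was lost.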

How the data were processed

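In situ Hi-C libraries were made with MboI and, per the study's methods, aligned with diffHic to mm10 (submitters' processing notes; GRCm38 coordinates), after which duplicates, dangling ends and long fragments were removed. The authors deposited 1 symmetric matrix of raw read pair counts per library, with 50 kb bins rounded to MboI sites. Bin positions were rebuilt from the GRCm38 sequence, since the matrices carry bin numbers only, and gave 53357 bins over 66 sequences. Totals were 88703088 to 218945191 read pairs.

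Bins with over 10% undetermined bases, or with interchromosomal autosomal coverage over 4-fold from the median, were left out (47332 of 48088 kept). The bin over Rn18s-rs5 lay past this coverage limit and was counted separately. Its expected contacts divided its read pairs over the 18 autosomes other than 17 by their bin factors. Expected counts came from bin factors fitted so that each bin kept its coverage. A and B compartments were taken from the first principal component of pooled 100 kb intrachromosomal correlations, oriented by gene starts. Windows of 1 Mb and blocks of 17 Mb from 3 Mb were fitted by quasi-likelihood in edgeR 4.0.16 under R 4.3.3 (log expectation as offset, Benjamini-Hochberg adjustment at 0.05), with DESeq2 1.42.0 as an alternative, and sums with exact permutation tests (Python 3.11.15, numpy 2.4.6). The fit was tested on simulated data. A pair of groups of 2 cannot go below p = 0.333 by permutation. Alternatives covered the expectation, bin filter, region, members, comparison set, depth, test, replicate block and each library left out.

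The members and lists were chosen with earlier results of these data known. Named windows were, for each chromosome, the highest and the lowest in mean contact over the 8 libraries, with up to 4 protein-coding genes by position, plus the listed nucleolar genes. The annotation used here does not name Rn45s, so the bin over Rn18s-rs5 was used, a choice made after seeing the annotation. Replicate numbers were not treated as pairs in the main tests, and whether they pair samples is not known.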

Additional observations from a re-analysis of the deposited data

How the results depend on the processing

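Of 90 alternatives of a value with a test, 80 kept its direction and its side of the threshold, and of 112 alternatives of a count of calls, 88 stayed within 1.5 times the count. The NOR to other difference (-0.12) turned to 0.0720 with regions of 3 to 30 Mb, fell short of the threshold without chromosome 16 (-0.0346), passed it at a changed size without chromosome 19 (-0.0352), without chromosome 15 (-0.23), at 3 to 10 Mb (-0.24), with compartment classes in the expectation (-0.04) and relative to the rest of the same chromosome pairs (-0.26), and ranged from -0.13 to -0.11 with each library left out. Its group difference (p = 0.0190) lost the threshold at 3 to 30 Mb (0.0571) and against autosomes of similar length (0.143), and gave 0.0190 to 0.0286 with each library left out, all by exact permutation. The NOR pairs alone (p = 0.0952) passed the exact permutation test relative to the rest of the same chromosome pairs (0.0190), at 3 to 30 Mb (0.0476), without chromosome 16 (0.0190) and without chromosome 19 (0.0381), and gave 0.0476 to 0.267 with each library left out, where only the fit without imminent division replicate 2 passed.

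Counts of NOR block pairs for pre-S against 10 h moved from 2 to 6 with TMM factors and no coverage expectation, to 1 with DESeq2 and to between 0 and 2 without 1 library, and for imminent division against pre-S from 7 to 4 with TMM. Over all block pairs, pre-S against 10 h gave 2964 calls, 5366 with TMM and 1315 with DESeq2. Counts of NOR windows with TMM were 0, 44, 52 and 38 for 10 h against 3 h, imminent division against 10 h, pre-S against 10 h and imminent division against pre-S, and with DESeq2 0, 9, 1 and 0. Without 1 library they were 0 to 1, 16 to 24, 4 to 13 and 3 to 10. Over all windows the last 3 contrasts gave 514, 340 and 168 calls, 707, 1145 and 969 with TMM, and 57, 23 and 5 with DESeq2. The cause was not tested.

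Deviations of same-numbered libraries from their group means correlated at -0.21 to 0.01 over blocks. With 2 libraries per group the deviations mirror each other, so these correlations cannot decide whether libraries of different groups were prepared together. With the replicate block, the group difference of NOR against other pairs gave p = 0.0833 (exact permutation within numbers) and the pre-S against 10 h count of NOR block pairs was 1. The ribosomal bin difference between NOR and other regions over all libraries stayed past the threshold in all 17 alternatives run. Its test over the 4 groups was not repeated under alternatives. Thinning all libraries to the smallest was run for the sums only and left the NOR to other difference at -0.12.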
